A study of Homo sapiens with 30 samples.

Results

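PDGFRA, PDGFRB, AXL, EGFR, MET, FGFR1, IGF1R, ALK, RET, and DDR2 are 10 of the 26228 genes in a table of FPKM values (fragments mapped to a transcript, scaled to its length and to all mapped reads of the library), and they were picked by name as receptor tyrosine kinases. The members were chosen with earlier results of these data known. RNA-Seq was analysed from SH-EP, an established human neuroblastoma (NB) cell line, and from 4 derivatives of it that stably express a MYCN transgene. In DMSO, RNA of PDGFRA, PDGFRB, DDR2, EGFR, and FGFR1 was lower in all 4 MYCN lines than in SH-EP at the FPKM as deposited, of which the DDR2 and FGFR1 calls in the T58A line depended on single libraries. PDGFRA fell the furthest, from a mean of 18.2 FPKM in SH-EP to between 2.41 and 4.16 FPKM. IGF1R was the only member that was higher in all 4 lines at the deposited scale, and it was not higher when libraries were scaled to spike-ins. ALK and RET were at or near 0 in every library.

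Receptor tyrosine kinases span the cell membrane, bind a ligand outside the cell, pair up, and phosphorylate tyrosines on each other's tails. Adaptor proteins that dock there start the RAS-MAPK and PI3K-AKT cascades, and phosphatases and CBL ubiquitin ligases switch the receptors off. In NB, ALK is the receptor best known for activating mutations, RET is a receptor of sympathetic neurons, and the PDGF receptors, AXL, DDR2, and EGFR are typical of mesenchymal cells.

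Parental SH-EP cells and SH-EP lines with MYCN as WT, T58A, S62A, or T58A S62A (alanine in place of a threonine, of a serine, or of both, called the double mutant, at phosphorylation sites) were each treated for 6 hours with DMSO or with 1 μM CYC065, an inhibitor of CDK9 and CDK2. The transgenes were retroviral and under an exogenous promoter, and parental cells carried none. Each of the 10 groups had 3 libraries. The sources used here do not say whether the libraries of a group came from separate cultures, so p-values measure only the spread between these libraries, which may be technical, nor whether a line was a clone or a pool. The number of reads per library is unknown. Low FPKM values gave a relative depth of 0.47 to 1 for DMSO and of 0.292 to 0.553 for CYC065 libraries, where 1 is the deepest. MYCN was listed at 0 FPKM in all 6 SH-EP libraries and at means of 12.9, 8.52, 5.72, and 13.5 FPKM in DMSO in the WT, T58A, S62A, and double mutant lines. Each SH-EP library shared its sequencing index with a library of a MYCN line, so SH-EP was in a separate pool from some of them, and pool and line cannot be told apart.

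Lines were compared on the FPKM as deposited, and CYC065 with DMSO on FPKM scaled to ERCC spike-ins, synthetic RNAs that the study added by cell number. Each comparison was also made on the other scale. Of all genes, 11575 reached a mean of 1 FPKM and entered 1 limma fit on log2(FPKM + 0.1), and an adjusted p (Benjamini-Hochberg over all of them) under 0.05 was the threshold. The added constant makes folds of weakly expressed genes look smaller than they are. Of the members, 8 passed the filter and ALK and RET did not. Of 10 markers of other cell types, all but KRT8 were near 0: for the other 9, the sum was between 0 and 0.79 FPKM in every library, and KRT5 was at 0 in all 30. KRT8 made up the rest of a sum that reached 828 FPKM. All 8 mesenchymal NB markers passed the filter, whereas of 10 adrenergic NB markers only HAND2, GATA2, and GATA3 did, and PHOX2A was at 0 in all 30 libraries.

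The regions just before the start sites of the members differ in their content of CG, the dinucleotide that is methylated in human DNA. The sequences are those of RefSeq on GRCh38.p14, 250 bases before the start on the strand of the gene, for 9 of the 10 members. The median over all 35116 promoters of that table was 11 CG dinucleotides and 58% GC. Shown here are the promoters of the 4 members that fell the most in the MYCN lines and of IGF1R, which was higher in all 4 at the deposited scale, with each CG in capitals.
PDGFRA, chr4:54229043-54229292 (+): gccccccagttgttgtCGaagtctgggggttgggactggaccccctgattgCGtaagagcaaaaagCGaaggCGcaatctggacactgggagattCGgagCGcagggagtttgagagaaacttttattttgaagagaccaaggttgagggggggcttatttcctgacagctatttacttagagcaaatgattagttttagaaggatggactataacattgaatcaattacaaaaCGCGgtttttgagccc
PDGFRB, chr5:150155846-150156095 (-): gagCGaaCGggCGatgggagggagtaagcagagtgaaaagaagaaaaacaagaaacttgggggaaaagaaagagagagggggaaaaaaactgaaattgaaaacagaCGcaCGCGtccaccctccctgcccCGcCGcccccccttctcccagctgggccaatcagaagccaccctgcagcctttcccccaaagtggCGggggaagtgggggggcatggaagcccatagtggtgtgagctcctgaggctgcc
DDR2, chr1:162630613-162630862 (+): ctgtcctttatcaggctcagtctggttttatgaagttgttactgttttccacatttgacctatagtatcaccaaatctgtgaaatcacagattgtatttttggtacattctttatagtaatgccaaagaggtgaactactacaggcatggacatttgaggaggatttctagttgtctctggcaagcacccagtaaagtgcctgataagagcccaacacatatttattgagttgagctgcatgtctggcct
EGFR, chr7:55018767-55019016 (+): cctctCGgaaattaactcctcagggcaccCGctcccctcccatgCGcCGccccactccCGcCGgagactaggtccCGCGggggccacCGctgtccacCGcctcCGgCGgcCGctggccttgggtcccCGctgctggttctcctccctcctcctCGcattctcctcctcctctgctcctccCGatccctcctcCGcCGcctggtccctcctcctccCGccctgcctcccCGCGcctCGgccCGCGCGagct
IGF1R, chr15:98648289-98648538 (+): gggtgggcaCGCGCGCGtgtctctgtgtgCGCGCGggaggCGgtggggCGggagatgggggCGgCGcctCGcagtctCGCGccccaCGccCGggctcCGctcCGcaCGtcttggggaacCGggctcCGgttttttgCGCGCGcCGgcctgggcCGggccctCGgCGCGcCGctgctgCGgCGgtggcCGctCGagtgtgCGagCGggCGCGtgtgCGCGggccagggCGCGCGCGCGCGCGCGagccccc
The DDR2 promoter holds 0 CG and is 40% GC, the PDGFRA promoter holds 8, and that of PDGFRB 9. EGFR has 25 and IGF1R 48, where IGF1R has the most of all 9. The promoters of AXL, MET, ALK, and RET hold 4, 24, 24, and 33. The letters CACGTG, which MYC family proteins can bind, were searched on both strands and are in none of the 9 windows. They are in 6.34% of all promoters of this length. TGANTCA, with any base at N, is a loose pattern that covers letters AP-1 can bind. It occurs only before PDGFRA, as TGAATCA, 32 bases before its start, and in 6.57% of all promoters. Whether AP-1 binds this form was not tested. GGAATG, letters that TEAD proteins can bind, is in 0 of the 9 and in 11.9% of all. CACGTG contains a CG, so that its matches would also count as CG, and the other motifs do not. Such letters describe the sequence and not a bound site.

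PDGFRA and PDGFRB encode the 2 receptors for platelet-derived growth factors, which drive the growth of mesenchymal cells. PDGFRA (chromosome 4, 55095447 to 55164412 of GRCh37, plus strand) was at 17.6, 17.1, and 19.9 FPKM in the 3 SH-EP DMSO libraries. It was at 2.36, 2.42, and 2.44 FPKM in the WT line, at 3.23, 3.38, and 2.83 in T58A, at 2.52, 2.91, and 2.45 in S62A, and at 4.03, 4.76, and 3.70 in the double mutant. Every MYCN-line library was below every SH-EP library, and the double mutant libraries were above those of the other MYCN lines. The log2 difference from SH-EP at the deposited FPKM was -2.86 in WT, -2.49 in the T58A line, -2.75 in S62A, and -2.11 in the double mutant (standard error 0.15 each), with adjusted p from 1.60e-13 to 3.52e-11 by limma. With spike-in scaling these differences were larger, from -4.70 to -2.96. RNA from bulk cultures cannot tell fewer cells with a receptor from less RNA per cell.

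PDGFRB (chromosome 5, 149493402 to 149535435, minus strand) was more abundant per length than PDGFRA in SH-EP, at 53.8, 55.3, and 54.6 FPKM in DMSO. It was at 20.7, 19.2, and 21.2 FPKM in WT, at 26.1, 26.1, and 27.3 in T58A, at 21.4, 22.2, and 22.1 in S62A, and at 19.5, 20.4, and 18.6 in the double mutant. All 12 MYCN-line libraries lay below all 3 of SH-EP, with T58A the highest of the MYCN lines. The log2 differences were -1.42, -1.04, -1.32, and -1.48 in the same order (standard error 0.06, adjusted p from 2.24e-15 to 1.99e-12 by limma). The order of PDGFRB levels in DMSO was SH-EP, T58A, S62A, WT, and the double mutant, and only WT and the double mutant had overlapping libraries.

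DDR2 (chromosome 1, 162601163 to 162757195, plus strand) encodes a receptor for fibrillar collagen rather than for a soluble growth factor. Its DMSO libraries were at 40.3, 40.5, and 38.2 FPKM in SH-EP, 10.04, 14.6, and 14.3 in WT, 32.1, 29.5, and 32.2 in T58A, 15.6, 17.9, and 15.04 in S62A, and 19.6, 25.2, and 20.3 in the double mutant. No neighbours in the order SH-EP, T58A, the double mutant, S62A, WT overlapped. The log2 difference from SH-EP was -1.62 in WT, -1.29 in S62A, and -0.88 in the double mutant, with adjusted p of 1.67e-11, 9.28e-10, and 4.54e-07 by limma. In T58A it was -0.34 (standard error 0.11, adjusted p = 0.0124), and this call was lost when the T58A DMSO library with a spike-in factor of 1.2, against 1.92 and 1.94 for the others of its group, was left out.

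EGFR (chromosome 7, 55086710 to 55279321, plus strand), the receptor for epidermal growth factor and TGF-alpha, was at 20.5, 20.03, and 17.6 FPKM in the SH-EP DMSO libraries. It was at 5.52, 7.85, and 7.56 in WT, 10.1, 10.9, and 11.1 in T58A, 10.8, 10.2, and 9.86 in S62A, and 9.14, 6.38, and 9.33 in the double mutant. Every MYCN-line library was again below SH-EP. Their log2 differences from SH-EP were -1.47, -0.85, -0.90, and -1.23 (standard error 0.16, adjusted p from 5.01e-08 to 1.15e-04 by limma). T58A and S62A overlapped, and so did WT and the double mutant.

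**Figure D1:**
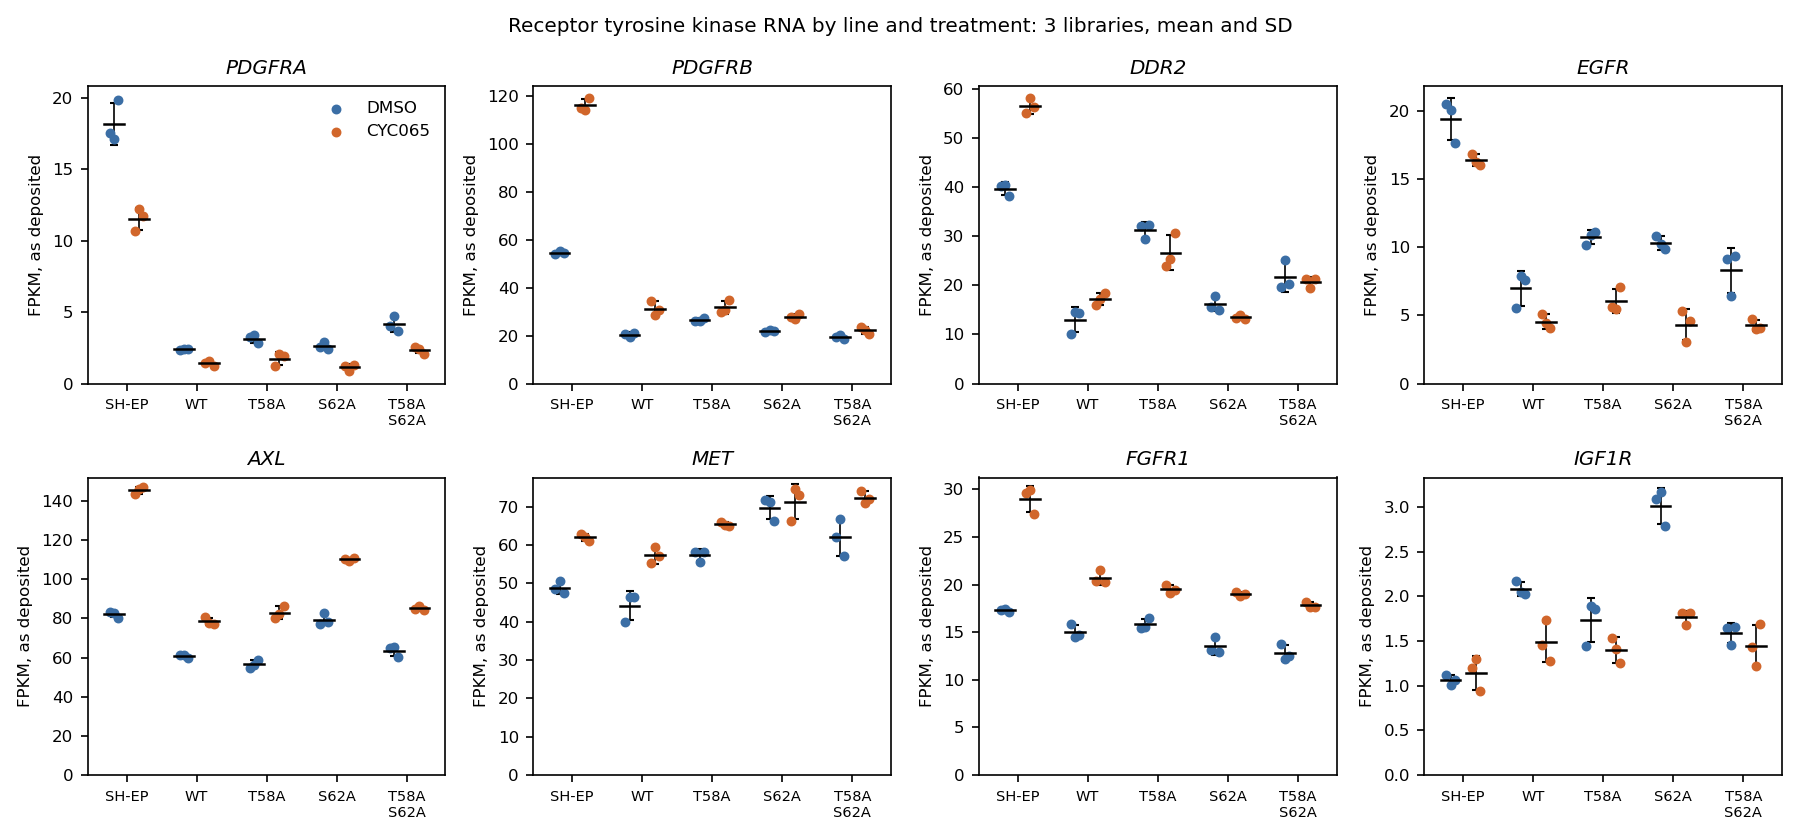
FPKM as deposited (vertical axes) of the 8 members that passed the filter, by line (horizontal axes), in DMSO (blue) and CYC065 (orange), where each point is a library and bars are the mean and SD of 3. PDGFRA, PDGFRB, DDR2, and EGFR are higher in SH-EP than in any MYCN line, also with spike-in scaling. IGF1R is highest in S62A in DMSO as deposited. With spike-in scaling S62A has the lowest mean of IGF1R, but its libraries overlap those of the other MYCN lines.

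AXL, MET, and FGFR1 moved less. AXL (chromosome 19, 41725128 to 41767671, plus strand), a receptor of the TAM family that binds GAS6, had the highest mean level over the 30 libraries of all members, 84.5 FPKM. In DMSO it was at 83.4, 82.8, and 80.3 FPKM in SH-EP, 61.5, 61.3, and 59.6 in WT, 54.6, 56.4, and 58.7 in T58A, 77.3, 82.6, and 78.1 in S62A, and 64.9, 65.4, and 60.1 in the double mutant. The S62A libraries overlapped those of SH-EP, and the other 3 lines were below both. AXL was lower than SH-EP by limma in WT (-0.43 on the log2 scale), T58A (-0.54), and the double mutant (-0.37), with adjusted p from 2.57e-11 to 1.42e-08. In S62A the difference was -0.05 (95% interval -0.13 to 0.03, adjusted p = 0.277).

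MET (chromosome 7, 116312250 to 116438431, plus strand), the receptor for hepatocyte growth factor, was at 48.5, 50.6, and 47.5 FPKM in SH-EP in DMSO. It was at 39.8, 46.4, and 46.4 in WT, 58.3, 55.5, and 58.1 in T58A, 71.8, 71.1, and 66.3 in S62A, and 62, 66.8, and 57.1 in the double mutant. The WT line lay below SH-EP and the 3 mutant lines above it, without overlap. At the deposited scale the log2 difference was -0.15 in WT (adjusted p = 0.0365 by limma), 0.23 in the T58A line (0.00191), 0.51 in S62A (8.01e-08), and 0.34 in the double mutant (2.63e-05), but with spike-in scaling it was negative in all 4 lines, from -1.45 to -0.50. The WT call was lost in 3 of 6 fits that each left out a library of the comparison.

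FGFR1 (chromosome 8, 38257733 to 38326352, minus strand), a fibroblast growth factor receptor, was at 17.3, 17.5, and 17.2 FPKM in SH-EP and at means of 15.0, 15.8, 13.5, and 12.8 FPKM in WT, T58A, S62A, and the double mutant. Every library of the MYCN lines, at 12.2 to 16.5 FPKM, was below those of SH-EP. The log2 differences by limma were -0.20 (adjusted p = 0.00235), -0.13 (0.043), -0.36 (3.82e-06), and -0.43 (2.27e-07), and the T58A call was lost in 5 of 6 fits without a library.

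IGF1R (chromosome 15, 99191768 to 99507759, plus strand), the receptor for insulin-like growth factors, was low in SH-EP, at 1.12, 1.01, and 1.06 FPKM in DMSO. It was at 2.17, 2.05, and 2.03 in WT, 1.45, 1.90, and 1.86 in T58A, 3.09, 3.17, and 2.78 in S62A, and 1.65, 1.46, and 1.65 in the double mutant. The groups of all 4 MYCN lines were above SH-EP without overlap, and S62A was above the other 3. At the deposited scale the log2 difference was 0.91 in WT (adjusted p = 1.42e-05), 0.65 in the T58A line (6.78e-04), 1.42 in S62A (1.88e-08), and 0.53 in the double mutant (0.0037) by limma, whereas with spike-in scaling it was between -0.45 and -0.26 and passed the threshold in no line.

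ALK (chromosome 2, 29415640 to 30144452, minus strand) and RET (chromosome 10, 43572512 to 43625799, plus strand), the latter a receptor for GDNF family ligands, had means of 0.00424 and 0.00842 FPKM over the 30 libraries. The highest value of ALK in any library was 0.0399 FPKM, and that of RET 0.0781. ALK was listed at 0 in all DMSO and CYC065 libraries of T58A, S62A, and the double mutant, and RET in all those of T58A and S62A. A listed 0 can be a failed estimate, so no fold of ALK or RET is given. In a fit without the filter, ALK passed the threshold by limma in lines where it was listed at 0 and in the mean of the 4 MYCN lines. It also passed with CYC065 in SH-EP, where 1 of 3 DMSO and 2 of 3 CYC065 libraries were at 0. These fitted differences depend on the added constant.

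In the WT line, 7 members were lower and 1 was higher than SH-EP at the deposited scale, where of all tested genes 22.6% were lower and 31.6% higher. The counts were 6 lower and 2 higher in T58A (23.3% and 30.9% of all genes), 5 lower and 2 higher in S62A (23.4% and 31%), and 6 and 2 in the double mutant (24.1% and 31.2%). For the mean of the 4 lines they were again 6 and 2 (26.3% and 34.6%). The 3 libraries of a line did not overlap the 3 of SH-EP for 8 tested members in WT, T58A, and the double mutant and for 7 in S62A, as for 65.6%, 66.4%, 63.1%, and 67.4% of all genes. Lower in all 4 lines were 5 members, against 13.4% of tested genes, and higher in all 4 was 1, against 19.2%. The first count was 3 without the T58A DMSO library at a spike-in factor of 1.2 and 4 or 5 without any other single library. The 4 comparisons share the SH-EP libraries. Because the members were chosen with earlier results of these data known, their counts and medians can follow from that choice. Of the 13 other receptor tyrosine kinases tested, 9 were higher and 4 lower in the mean of the 4 lines as deposited. The median difference over the 8 tested members was -0.93, -0.44, -0.63, and -0.65 in WT, T58A, S62A, and the double mutant, beside 0.07, 0.05, 0.06, and 0.06 over all tested genes.

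Spike-in scaling moved the median of all tested genes to -1.18, -0.89, -1.88, and -0.76 in the 4 lines, since the spike-ins held 1.99% to 2.29% of FPKM in SH-EP DMSO libraries and 3.15% to 9.36% in those of the MYCN lines. Of the genes past the threshold, 56.4% to 58.3% were higher in the MYCN lines as deposited and 0.398% to 3.13% with that scaling. On that scale, 7 members were lower in each line, and IGF1R was the only one that did not pass the threshold. Relative to the median of all genes at the deposited scale, PDGFRA was at -2.94, -2.55, -2.81, and -2.16 and IGF1R at 0.83, 0.59, 1.35, and 0.47 in WT, T58A, S62A, and the double mutant. Of 8 mesenchymal NB markers, 6 were lower and 1 (FOSL1) higher in the mean of the 4 lines, with FOSL1 lower with spike-in scaling, and their summed level was 3291 to 3429 FPKM in SH-EP and 1697 to 2430 FPKM in the MYCN lines in DMSO. Of the 3 adrenergic markers tested, HAND2 and GATA3 were lower and GATA2 was higher in the mean of the 4 lines as deposited. By line, HAND2 passed the threshold only in WT (-0.33) and S62A (-0.83), and GATA3 only in T58A (-1.18) and the double mutant (-0.79). GATA2 passed it in all lines but the double mutant. With spike-in scaling, all 3 markers were lower in each line. The part of these markers in the lower receptor RNA was not tested.

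**Figure D2:**
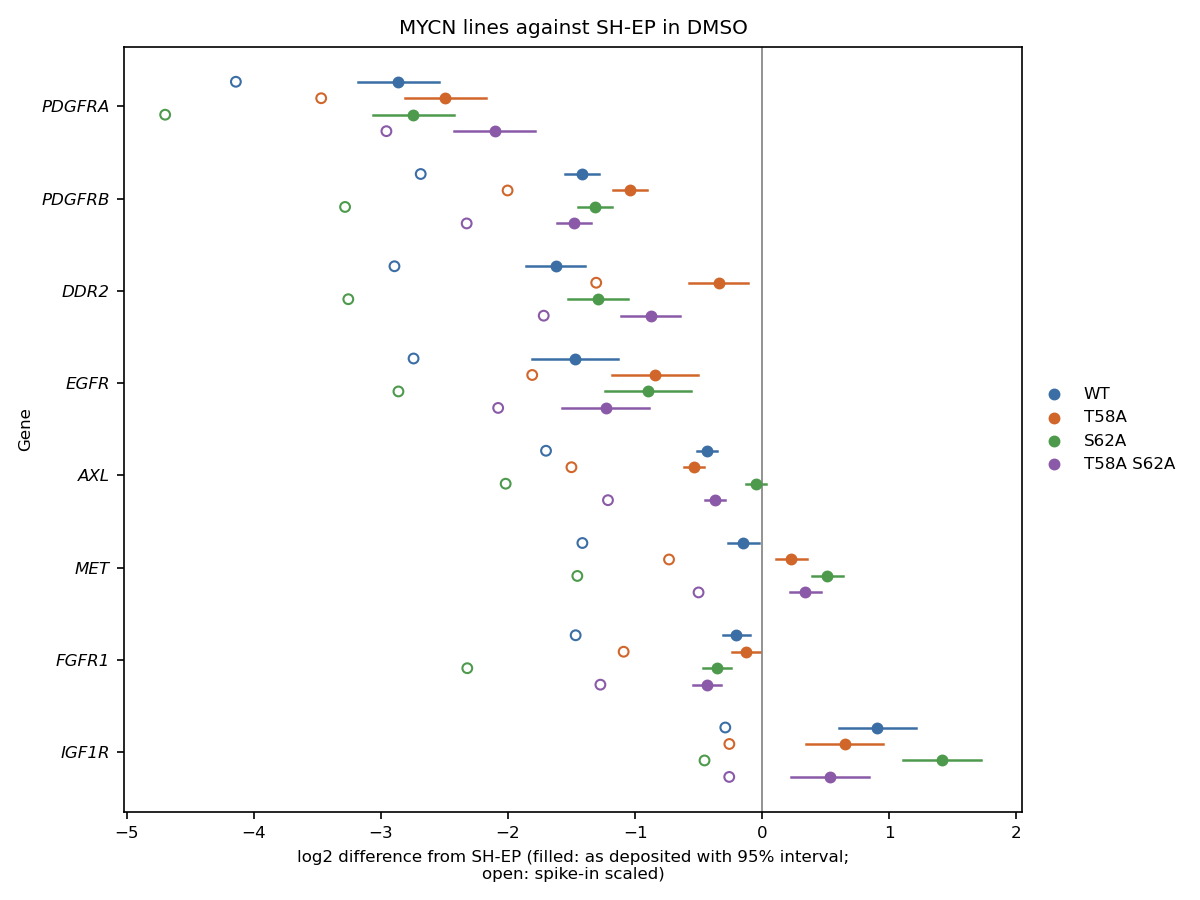
Log2 difference from SH-EP in DMSO (horizontal axis) for each tested receptor (vertical axis) and MYCN line (colours), at the deposited FPKM with 95% intervals from limma (filled points) and with spike-in scaling (open points). PDGFRA, PDGFRB, DDR2, and EGFR are left of 0 in all 4 lines on both scales, whereas IGF1R in all 4 lines and MET in the 3 mutants are right of 0 as deposited and left of 0 with spike-in scaling.

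The mutant lines were each compared with the WT line, since the mutated sites are those whose phosphorylation is known to set MYCN turnover. All 8 tested members passed the threshold in at least 1 mutant at the deposited scale, as did 45.8% of tested genes. DDR2 differed the most, by 1.28 on the log2 scale in T58A (standard error 0.11, adjusted p = 1.60e-08 by limma), and by 0.33 in S62A and 0.75 in the double mutant. The S62A call was lost in 3 of 6 fits without a library. With spike-in scaling the S62A difference of DDR2 was -0.36. MET was higher than WT by 0.38 in T58A, 0.66 in S62A, and 0.49 in the double mutant, with adjusted p from 1.12e-08 to 4.64e-05 by limma, but by -0.04 in S62A with spike-in scaling. PDGFRA was higher in the double mutant by 0.76 (adjusted p = 7.02e-04 by limma) and on both scales, while its differences in T58A (0.37) and S62A (0.12) did not pass the threshold as deposited. With spike-in scaling PDGFRA and PDGFRB were lower than WT in S62A, at -0.56 (adjusted p = 0.0281) and -0.60 (adjusted p = 0.00953) by limma.

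In T58A, 4 members were higher than in WT and 1 was lower, where 10.7% of tested genes were higher and 13% lower. Besides DDR2 and MET, these were EGFR (0.63), PDGFRB (0.38), and AXL, which was lower by a log2 difference of -0.10 as deposited and at 0.20 with spike-in scaling, a call lost in 4 of 6 fits without a library. In S62A, 5 were higher and 1 lower (10.1% and 14% of genes). AXL (0.38), EGFR (0.57), IGF1R (0.51), MET, and DDR2 were higher as deposited and at -0.32, -0.12, -0.16, -0.04, and -0.36 with spike-in scaling, and FGFR1 was lower on both scales, at -0.16 as deposited, a call lost in 3 of 6 fits without a library. The EGFR calls in T58A and S62A and the IGF1R call in S62A were each lost in 1 of 6. In the double mutant, 3 were higher (DDR2, MET, and PDGFRA) and 1 lower (9.43% and 14.2% of genes), namely FGFR1 at -0.23, which was at 0.19 with spike-in scaling. Over all genes past the threshold, 45.0%, 41.8%, and 39.9% were higher than WT in T58A, S62A, and the double mutant as deposited and 94.9%, 0.242%, and 95.8% with spike-in scaling.

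CYC065 blocks CDK9, the kinase that releases RNA polymerase II into elongation, and the question of the comparison is which receptor RNAs fell within 6 hours. With spike-in scaling, 7 of the 8 tested members were lower in all 5 lines, as were 69.8% of tested genes, and 0 were higher in all 5, as were 0.484% of genes. At an unadjusted p under 0.05 the count of members higher was also 0 in each line. Only PDGFRB in SH-EP did not pass the threshold. By line, 7 members were lower in SH-EP and 8 in each MYCN line, beside 76.3% of tested genes in SH-EP, 93.7% in WT, 84.5% in the T58A line, 90.2% in S62A, and 76.4% in the double mutant. All 8 were lower in the mean of the 5 lines (94.4% of genes). The CYC065 libraries did not overlap the DMSO libraries for all 8 tested members in each line on this scale, as for 88.3%, 94.8%, 78.1%, 92.4%, and 77.7% of genes in SH-EP, WT, T58A, S62A, and the double mutant.

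PDGFRA and EGFR fell the most. Spike-in scaled FPKM of PDGFRA went from 57.1, 52.7, and 66.0 in the SH-EP DMSO libraries to 15.2, 17.6, and 13.7 with CYC065, and in the WT line from 3.89, 2.72, and 3.12 to 0.661, 0.555, and 0.527. The log2 change of PDGFRA was -1.91 in SH-EP, -2.29 in WT, -1.99 in the T58A line, -2.41 in S62A, and -1.86 in the double mutant (standard error 0.22, adjusted p from 2.41e-10 to 3.96e-08 by limma). PDGFRA was also lower in all 5 lines at the deposited FPKM, where SH-EP fell from a mean of 18.2 to 11.5 FPKM, WT from 2.41 to 1.41, T58A from 3.15 to 1.75, S62A from 2.63 to 1.13, and the double mutant from 4.16 to 2.35.

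Spike-in scaled FPKM of EGFR went from 66.5, 61.6, and 58.4 to 24.0, 23.4, and 18.7 in SH-EP and from 8.87, 9.59, and 7.10 to 1.68, 0.794, and 1.35 in S62A. These groups did not overlap. The log2 change of EGFR was -1.50 in SH-EP, -2.25 in WT, -2.0 in the T58A line, -2.69 in S62A, and -2.0 in the double mutant (standard error 0.23, adjusted p from 4.21e-11 to 1.36e-06 by limma). As deposited it was lower in the 4 MYCN lines, from -1.27 to -0.60, and at -0.24 in SH-EP (adjusted p = 0.188).

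PDGFRB, AXL, FGFR1, and MET changed sign with the scaling. PDGFRB was at 115.1, 114, and 119 FPKM as deposited in SH-EP with CYC065, against 53.8, 55.3, and 54.6 in DMSO, and this was a rise of 1.09 on the log2 scale (adjusted p = 2.83e-13 by limma). On the spike-in scale the same libraries were at 164, 164, and 139 with CYC065 and 175, 170.3, and 181 in DMSO, a log2 change of -0.18 (95% interval -0.58 to 0.23, adjusted p = 0.405). In WT, T58A, S62A, and the double mutant, PDGFRB changed by -1.07, -0.94, -1.15, and -0.89 with spike-in scaling and by 0.61, 0.26, 0.35, and 0.19 as deposited.

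AXL on the spike-in scale was at 271, 255, and 266 in SH-EP in DMSO and at 204, 209.7, and 172 with CYC065, and in WT at 101, 69.0, and 76.2 and then 37.6, 27.9, and 32.3. The fall was larger in WT, and in both lines the groups did not overlap. Its log2 change was -0.44 in SH-EP (adjusted p = 0.033), -1.32 in WT, -0.65 in the T58A line, -1.03 in S62A, and -0.66 in the double mutant by limma, whereas as deposited it rose in all 5 lines, by 0.83, 0.37, 0.55, 0.48, and 0.42. The SH-EP call was lost in 3 of 6 fits without a library. FGFR1 changed by -0.52, -1.22, -0.89, -1.0, and -0.61 with spike-in scaling and by 0.74, 0.46, 0.30, 0.49, and 0.47 as deposited. The FGFR1 call in SH-EP was lost (-0.39) without the CYC065 library at 27.4 FPKM, and that in the double mutant in 2 of 6 fits.

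MET changed by -0.92 in SH-EP, -1.31 in WT, -1.01 in the T58A line, -1.47 in S62A, and -0.86 in the double mutant with spike-in scaling and by 0.34, 0.38, 0.19, 0.03, and 0.23 as deposited, where S62A did not pass the threshold. DDR2 changed by -0.75, -1.25, -1.43, -1.74, and -1.14 with spike-in scaling, but as deposited it was higher in SH-EP (0.51) and WT (0.42). The other lines were at -0.24 in T58A, -0.26 in S62A, and -0.06 in the double mutant as deposited, and S62A passed the threshold. IGF1R changed by -1.12, -2.02, -1.42, -2.07, and -1.16 with spike-in scaling. As deposited it was at 0.08 in SH-EP and at -0.47, -0.29, -0.74, and -0.13 in the MYCN lines, of which WT and S62A passed the threshold.

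The median of all tested genes was at -1.08 in SH-EP, -1.58 in WT, -1.09 in the T58A line, -1.35 in S62A, and -0.98 in the double mutant on the spike-in scale and between 0.06 and 0.15 as deposited. Of the genes past the threshold, 0.814% to 2.35% were higher with spike-in scaling, 52.0% to 56.0% as deposited, and 61.2% to 63.1% with each library centred on its median. The median of the 8 tested members was -0.84, -1.32, -1.21, -1.61, and -1.02. Relative to the median gene, PDGFRA was at -0.84 in SH-EP and between -1.05 and -0.71 in the MYCN lines, and EGFR was at -0.43 and between -1.34 and -0.67. On the same measure PDGFRB was at 0.90 in SH-EP and 0.08 to 0.50 in the MYCN lines, AXL at 0.64 and 0.25 to 0.45, and FGFR1 at 0.55 and 0.20 to 0.37. IGF1R was at -0.05 in SH-EP and between -0.72 and -0.18 in the MYCN lines. With each library centred on its median, PDGFRA was lower with CYC065 in all 5 lines by limma, EGFR in the 4 MYCN lines, and IGF1R in S62A, while EGFR in SH-EP was at -0.10 and did not pass the threshold. The spike-ins held 2.70% to 3.78% of FPKM in SH-EP CYC065 libraries and 4.12% to 15.2% in those of the MYCN lines.

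**Figure D3:**
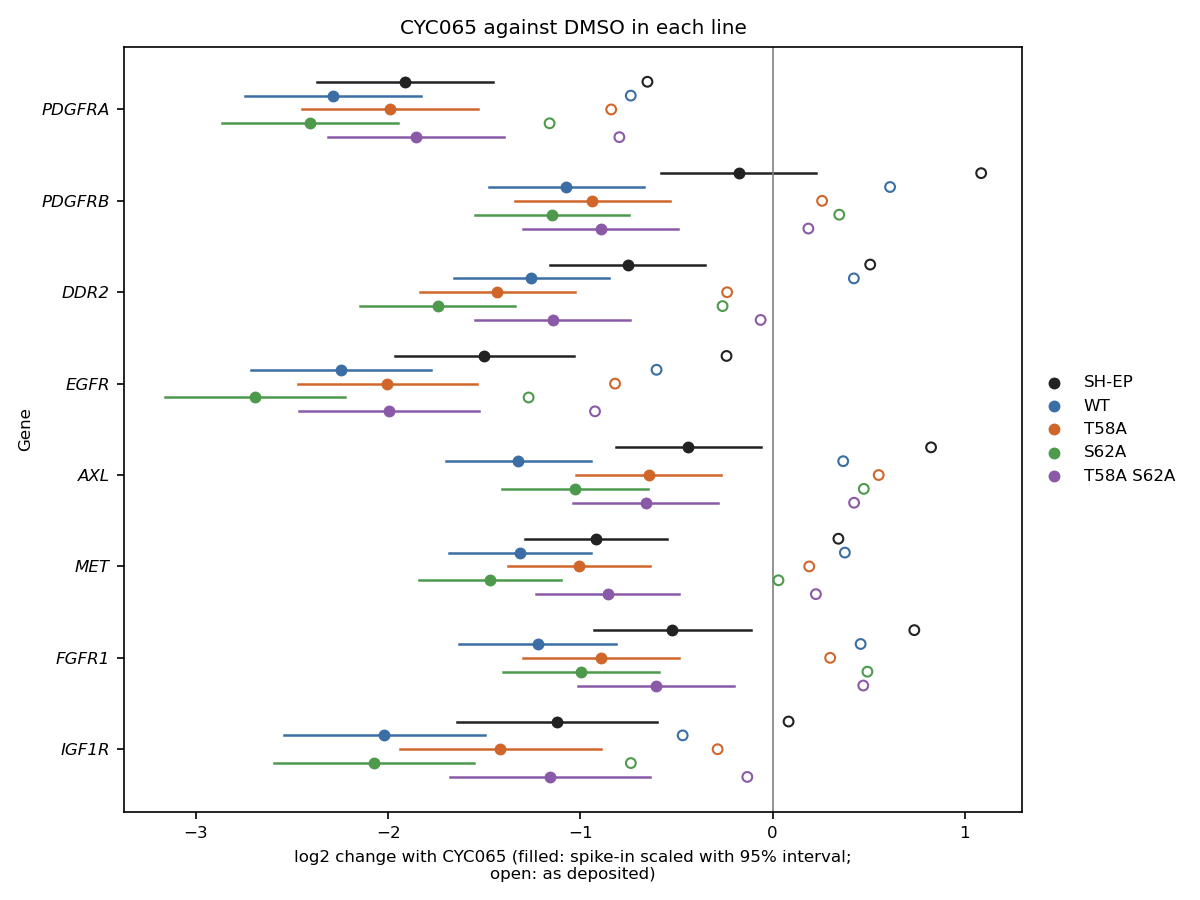
Log2 change with CYC065 (horizontal axis) for each tested receptor (vertical axis) in the 5 lines (colours), with spike-in scaling and 95% intervals from limma (filled points) and at the deposited FPKM (open points). All filled points are left of 0, though the interval of PDGFRB in SH-EP includes 0, and the open points of PDGFRB, AXL, MET, and FGFR1 are right of it in all 5 lines.

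Whether the response of a receptor to CYC065 differed between SH-EP and a MYCN line was tested as an interaction on the spike-in scale. Of the 8 tested members, 4 differed in at least 1 MYCN line, as did 20.6% of tested genes. In WT, 2 had a more negative change than in SH-EP (14.1% of genes), namely PDGFRB by -0.90 (standard error 0.28, adjusted p = 0.0392) and AXL by -0.88 (standard error 0.26, adjusted p = 0.0372) by limma. In S62A, 3 did (1.72% of genes), namely EGFR by -1.19 (adjusted p = 0.0287), DDR2 by -0.99 (adjusted p = 0.0369), and PDGFRB by -0.97 (adjusted p = 0.0403). The median interaction of all tested genes was -0.51 in WT and -0.28 in S62A. Relative to it, PDGFRB and AXL were at -0.38 and -0.37 in WT. EGFR, DDR2, and PDGFRB were at -0.91, -0.71, and -0.69 in S62A on that measure. In T58A and the double mutant limma gave a count of 0 (0.311% and 0.19% of genes more negative), beside 2 and 1 at an unadjusted p under 0.05, and with the FPKM as deposited the counts were 4 and 5. For the mean of the 4 MYCN lines, PDGFRB alone passed the threshold (1.81% of genes), at -0.84 (adjusted p = 0.0193). Each of the 5 calls by line was lost in 7 to 10 of 12 fits that left out 1 library, among them fits without 1 SH-EP library. Without the T58A DMSO library at a spike-in factor of 1.2, PDGFRB (-1.0) and DDR2 (-0.95) also passed the threshold in T58A. The direction of PDGFRB, at -0.90, -0.76, -0.97, and -0.72 in WT, T58A, S62A, and the double mutant, was also negative as deposited, where all 4 passed the threshold.

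The make-up of the receptor RNA was described by the share of each member in the summed FPKM of all 10, which spike-in scaling does not change. The sum was 276 to 285 FPKM in the SH-EP DMSO libraries and 158 to 225 in those of the MYCN lines. PDGFRA, PDGFRB, DDR2, and EGFR together made up 46.7% to 47.2% of it in SH-EP, 24.4% to 27.0% in WT, 35.1% to 35.5% in T58A, 23.4% to 23.7% in S62A, and 26.8% to 28.3% in the double mutant. T58A lay between SH-EP and the other MYCN lines, and only WT and the double mutant overlapped. MET held 17.4% ± 0.34 in SH-EP and between 26.8% ± 1.36 in WT and 32.2% ± 0.95 in S62A (mean ± SD, n = 3 each). AXL held 29.2% ± 0.27 in SH-EP and between 27.9% ± 0.65 in T58A and 36.9% ± 1.80 in WT. With CYC065, PDGFRA went from 6.47% to 2.63% in SH-EP and PDGFRB from 19.4% to 26.5%. The 4 members named above were then at 45.4% to 46.2% in SH-EP and between 17.9% and 30.2% in the MYCN lines. PDGFRA, PDGFRB, DDR2, and EGFR were the members that fell the most in these same DMSO libraries. Their smaller joint share in DMSO therefore follows from that choice. FGFR1, also lower in all 4 lines as deposited, held 6.16% in SH-EP and between 6.23% in S62A and 9.14% in WT. These shares are described without a test.

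**Figure D4:**
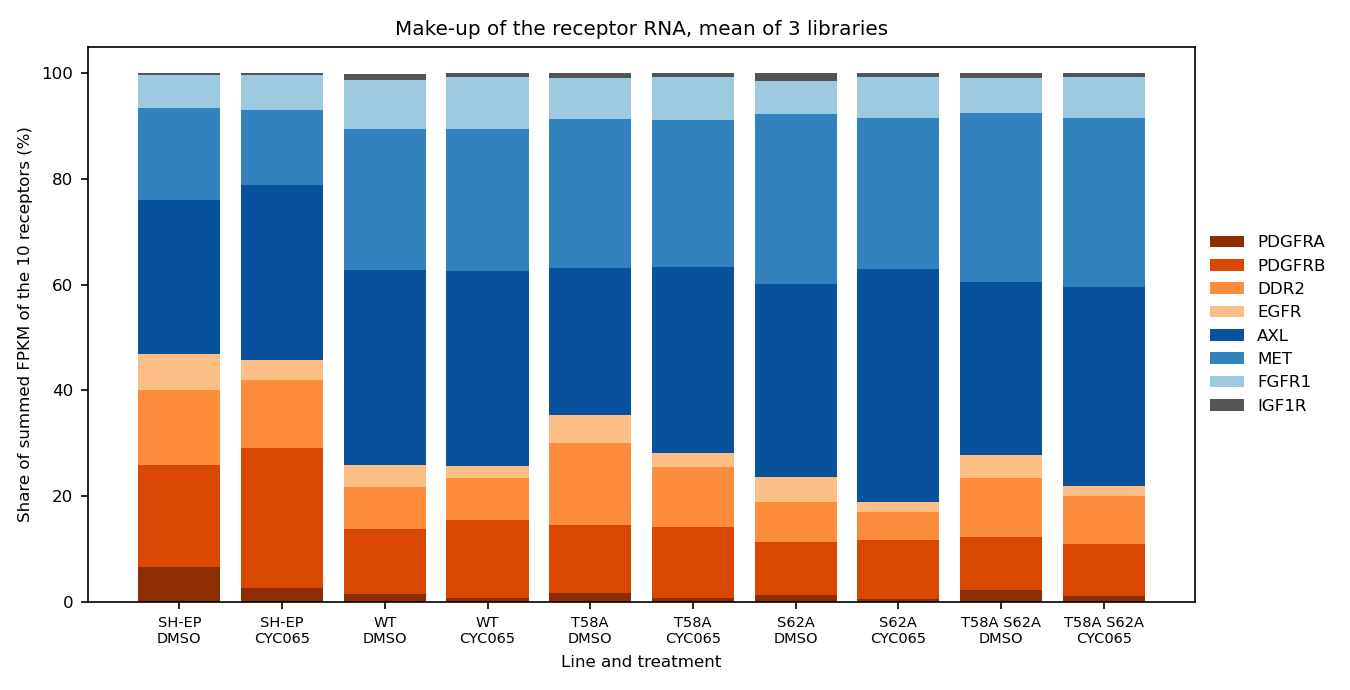
Share of the summed FPKM of the 10 receptors (vertical axis, %, mean of 3 libraries) held by each of the 8 members that passed the filter, by line and treatment (horizontal axis). PDGFRA, PDGFRB, DDR2, and EGFR (orange shades) hold 46.9% in SH-EP in DMSO and 23.5% to 35.3% in the MYCN lines, where AXL, MET, and FGFR1 (blue shades) hold most of the rest. The genes in orange are those that fell the most in DMSO, so their smaller joint share there follows from that choice.

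The genes whose pattern was most like that of a member over the 10 group means of log2(FPKM + 0.1) are given as a description, since the groups share lines and treatments. VCL, which encodes the adhesion protein vinculin, was the closest to PDGFRB (Pearson r = 0.996, n = 10 group means), followed by ANTXR2 and GBP2. GLCE was the closest to EGFR (r = 0.990), PARP14 to DDR2 (r = 0.989), PLCB3 to FGFR1 (r = 0.985), SAMD9L to PDGFRA (r = 0.983), and MBOAT7 to AXL (r = 0.983). The closest to MET was FDXR (r = 0.928), and that to IGF1R was LYPD6B (r = 0.908). Among the members, PDGFRA was most like EGFR (r = 0.907) and PDGFRB most like FGFR1 (r = 0.825).

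The ligands of these receptors were described from a list of 42 ligands and co-receptors, of which 40 are in the table and 18 passed the filter. In the mean of the 4 MYCN lines in DMSO, 2 were higher and 11 lower than in SH-EP, with a median of -0.53, beside 34.6% higher, 26.3% lower, and a median of 0.06 over all tested genes. HGF, the ligand of MET, was at 50.9, 48.0, and 54.5 FPKM in SH-EP and at 4.36 to 9.21 FPKM in the 12 MYCN-line libraries, without overlap, and its mean log2 difference was -2.91 (standard error 0.09, adjusted p = 3.46e-18 by limma). PTN, a growth factor that can act on ALK, fell from a mean of 97.9 FPKM to between 20.8 and 48.6 FPKM (-1.79). Both were also lower with spike-in scaling, at -4.17 and -3.05.

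IGF2, a ligand of IGF1R, was at 0.839, 0.982, and 1.25 FPKM in SH-EP in DMSO. It was at 15.1, 13.2, and 12.5 in WT, 18.4, 17.9, and 19.1 in T58A, 3.99, 4.54, and 3.96 in S62A, and 9.01, 7.56, and 7.12 in the double mutant. Every MYCN-line library was above SH-EP as deposited, and the mean log2 difference was 3.12 as deposited (adjusted p = 3.95e-18 by limma) and 1.95 with spike-in scaling. The mean does not stand for each line, since the S62A libraries of IGF2 overlapped those of SH-EP on the spike-in scale. TGFA, a ligand of EGFR, was at 2.45, 2.56, and 2.21 FPKM in SH-EP, and its means were 11.9, 6.46, 36.7, and 12.5 FPKM in WT, T58A, S62A, and the double mutant. Its mean log2 difference was 2.47 as deposited (adjusted p = 2.89e-20 by limma) and 1.24 with spike-in scaling. The receptor of TGFA was thus lower and TGFA higher in each MYCN line.

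**Figure D5:**
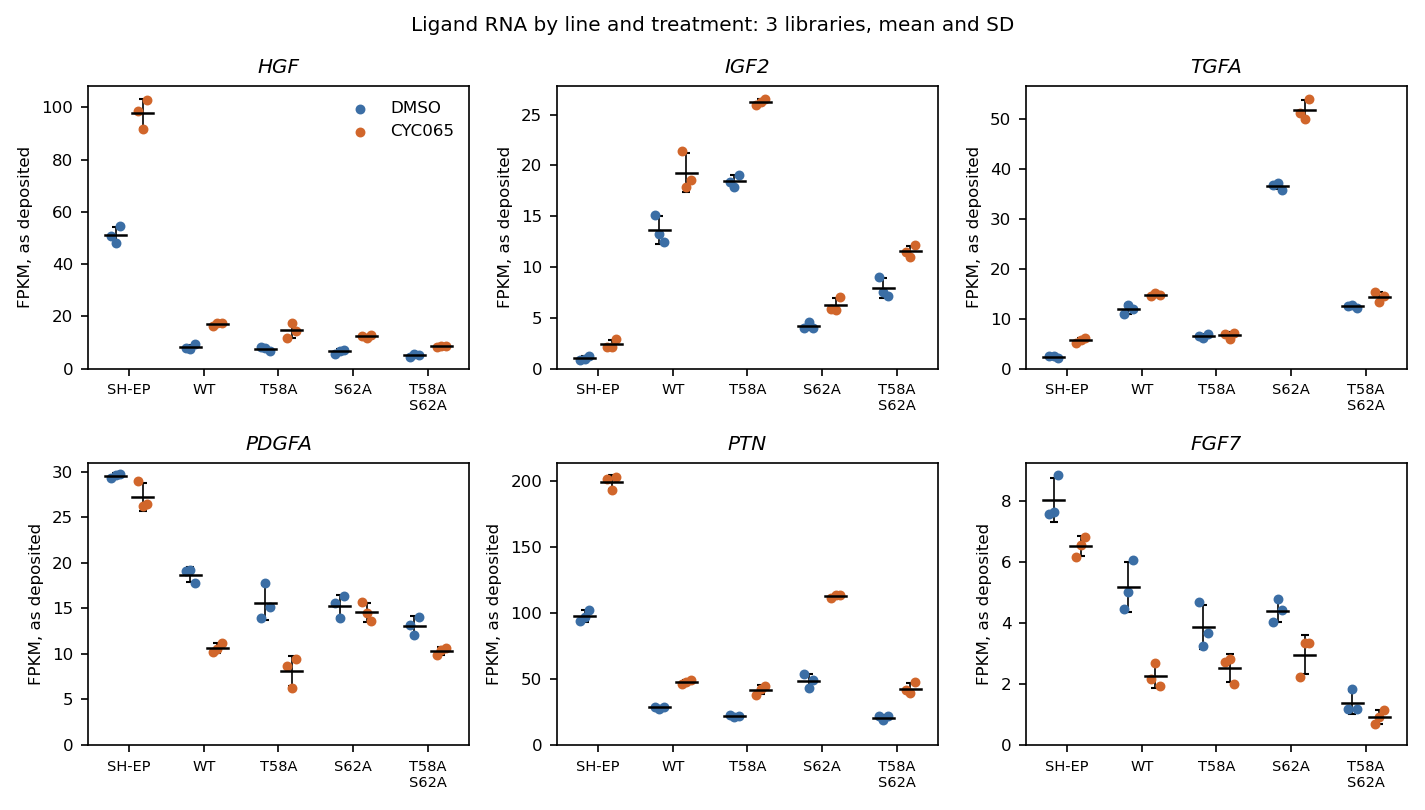
FPKM as deposited (vertical axes) of 6 ligand genes by line (horizontal axes) in DMSO (blue) and CYC065 (orange), with a point for each library and the mean and SD of 3. HGF, PTN, PDGFA, and FGF7 are lower and IGF2 and TGFA higher in every MYCN line than in SH-EP in DMSO. These directions also hold in the mean of the lines with spike-in scaling, though IGF2 in S62A overlaps SH-EP on that scale. The rise of HGF, PTN, IGF2, and TGFA with CYC065 in the mean of the lines is a fall with spike-in scaling.

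With CYC065, 16 of the 18 tested ligands and co-receptors were lower in the mean of the 5 lines on the spike-in scale and 2 were higher, with a median of -0.56, beside 94.4% lower, 1.57% higher, and a median of -1.20 over all tested genes. FGF7, a fibroblast growth factor, and PDGFA, a ligand of PDGFRA, fell the most among those lower in every line, by -1.92 and -1.79 on the log2 scale, and were also lower as deposited, at -0.63 and -0.46. The 2 that were higher are PSPN and HBEGF, which were named after their values were seen. HBEGF, an EGFR ligand, was at means of 12.1 FPKM in SH-EP, 13.2 in WT, 7.24 in the T58A line, 12.8 in S62A, and 8.58 in the double mutant in DMSO and at 32.3, 51.9, 23.7, 65.3, and 37.4 FPKM with CYC065. Its spike-in scaled log2 change was 0.15 in SH-EP (adjusted p = 0.421) and 0.28 in WT (0.135), and it rose by 0.51 in T58A, 0.85 in S62A, and 1.04 in the double mutant (adjusted p from 8.55e-06 to 0.0106 by limma). PSPN, a ligand of the GDNF family, was under 5 FPKM in the mean of every group.

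Of 48 other receptor tyrosine kinases, all in the table, 13 passed the filter. In the mean of the 4 MYCN lines, 9 were higher and 4 lower than in SH-EP as deposited, with a median of 0.31, but with spike-in scaling 0 were higher and 10 lower. Of all 11575 tested genes, 34.6% were higher and 26.3% lower as deposited, and 126 were higher and 10575 lower with spike-in scaling. EPHB2, an ephrin receptor, was at a log2 difference of -1.76 and was also lower with spike-in scaling. ROR1, a WNT5A receptor, and EPHB6, an ephrin receptor without kinase activity, were higher by 1.17 and 1.10 as deposited and at -0.04 and -0.09 with spike-in scaling. The most abundant, at 10 FPKM or more on average over all libraries, were EPHA2, PTK7, RYK, DDR1, and TYRO3, at 77.2, 53.9, 35.6, 9.45, and 9.93 FPKM in SH-EP in DMSO. Of them, PTK7 was lower at -1.15 and EPHA2 at -0.24 in the mean of the 4 lines on both scales, while RYK (0.24), DDR1 (0.40), and TYRO3 (0.16) were higher as deposited and lower with spike-in scaling. DDR1, the collagen receptor most like DDR2, thus moved the other way from DDR2 at the deposited scale.

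With CYC065, all 13 were lower in the mean of the 5 lines on the spike-in scale, as were 94.4% of tested genes, with a median of -1.04, beside -1.20 over all genes, and 4 were lower as deposited. EPHB4, an ephrin receptor, fell by 2.83 and LMTK2, a membrane kinase, by 2.28 on the log2 scale, and both were also lower as deposited.

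Below the receptors, 36 of 42 adaptors and effectors passed the filter, and 15 were higher and 9 lower in the mean of the 4 MYCN lines as deposited, with a median of 0.07, but 0 were higher and 36 lower with spike-in scaling. The shares are to be read against those of all tested genes, 34.6% higher and 26.3% lower as deposited and 10575 of 11575 lower with spike-in scaling. SHC1, an adaptor, was at -0.93 and lower on both scales. SRC, a kinase, was higher by 0.74 as deposited and lower, at -0.49, with spike-in scaling. With CYC065, 35 were lower (94.4% of all tested genes) and 1 higher (1.57%) in the mean of the 5 lines. The latter was FRS2, an adaptor of FGF receptors named after its value was seen, at 0.49. By line, the count of adaptors and effectors higher was 1 in SH-EP, in T58A, and in the double mutant and 0 in WT and S62A. The largest fall was that of PIK3R1, the regulatory subunit of PI3K, which went from 6.69 to 8.55 FPKM in the 15 DMSO libraries to 0.205 to 0.513 FPKM in the 15 CYC065 libraries, without overlap, a log2 change of -5.16 with spike-in scaling and -4.03 as deposited. CRK, an adaptor, changed by -3.49.

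Of 26 negative regulators, 21 passed the filter, and 5 were higher and 8 lower in the mean of the 4 MYCN lines as deposited (34.6% and 26.3% of all tested genes), and 1 and 20 with spike-in scaling. IGFBP5 and IGFBP6, which bind insulin-like growth factors, were lower by -2.30 and -1.84 on the log2 scale, and lower on both scales. PTPRF, a receptor phosphatase, was higher in the mean of the 4 lines by 1.75 as deposited and by 0.51 with spike-in scaling. By line, 0 negative regulators passed the threshold as higher in WT and in S62A with spike-in scaling, so PTPRF did not. ERRFI1, an inhibitor of EGFR, was higher by 0.61 as deposited and lower, at -0.65, with spike-in scaling. With CYC065, 20 were lower and 1 higher (94.4% and 1.57% of all tested genes), with a median of -1.50, beside -1.20 over all genes. The one that was higher is SOCS5 at 0.32 in the mean of the 5 lines, named after its value was seen. By line, the count of negative regulators higher was 0 in SH-EP, WT, and T58A and 1 in S62A and in the double mutant. CBLB, a ubiquitin ligase of receptors, was at -3.06 and RASA1, which switches RAS off, at -2.50, and both were also lower as deposited.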

How the data were processed

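RNA-Seq of 30 libraries was analysed, 3 for each of 5 lines in DMSO and in 1 μM CYC065. HISAT2 (alignment to GRCh37) and Cufflinks (FPKM per gene) were the tools of the authors, and the deposited table holds 1 FPKM column per library for 26228 genes and 92 ERCC spike-ins. It holds no counts and 0 columns of other samples. FPKM are scaled to the reads of a library, so they do not show a change of total RNA.

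The members and the gene lists were chosen with earlier results of these data known. Log2(FPKM + 0.1) was fitted for 11575 genes, those whose 30 libraries averaged 1 FPKM or more, in 1 model of 10 groups with limma 3.58.1 (R 4.3.3), with an intensity trend and two-sided tests. P-values were adjusted by the Benjamini-Hochberg method over all genes of a contrast, at a threshold of 0.05. Lines were compared at the deposited FPKM, and treatments and interactions with each library divided by its level over the 55 spike-ins that averaged 1 FPKM or more. The fit was tested on simulated data. Beside the members, genes were named by a rule, the 2 largest rises and falls of each list past the threshold in every line, and the other receptors that averaged 10 FPKM or more, and the genes with the highest Pearson correlation to a member over group means. Promoters came from RefSeq (GRCh38.p14), and gene positions from the GRCh37 annotation. Within-group correlation of libraries over genes was 0.925 to 0.959 and 0 libraries were identical. Alternatives were pseudocounts of 1 and 0.01, no filter, a filter at 5 FPKM, the other scaling, centring on the library median, the 36 spike-ins at 10 FPKM or more, a 1.5-fold minimum, only the groups compared, and leaving out each library. Those for the gene lists were added after the data were seen. Some genes that the rule names are not reported here.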

Additional observations from a re-analysis of the deposited data

Results flagged for a closer look

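The log2 response to CYC065 differed from that of SH-EP, by an interaction term in limma on the spike-in scale, for PDGFRB by -0.896 in WT and -0.971 in S62A, for AXL by -0.884 in WT, and for EGFR and DDR2 by -1.19 and -0.988 in S62A. All 5 had the same sign at the deposited FPKM, but each call was lost in 7 to 10 of 12 fits that left out 1 library.

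In DMSO, the log2 difference from SH-EP in a mutant line differed from that in the WT line by limma at the deposited scale, given here as mutant minus WT. For DDR2 it was 1.28 in T58A, 0.333 in S62A, and 0.748 in the double mutant. For MET it was 0.376, 0.66, and 0.488 in the same order. EGFR was at 0.628 in T58A and 0.573 in S62A, PDGFRB at 0.379 in T58A, and PDGFRA at 0.759 in the double mutant. AXL was at -0.105 in T58A and 0.382 in S62A, IGF1R at 0.511 in S62A, and FGFR1 at -0.157 in S62A and -0.229 in the double mutant. Of these 15 differences, 7 changed sign with spike-in scaling.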

How the results depend on the processing

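No paired analysis was possible because the columns of the table carry numbers that do not match the replicate numbers of the labels. The deposited FPKM carry no read depth, so no counting error could be given. With spike-in scaling of the lines, the log2 difference from SH-EP turned to -0.29, -0.26, -0.45, and -0.26 for IGF1R in WT, T58A, S62A, and the double mutant and to -0.73, -1.45, and -0.50 for MET in the 3 mutants. Mutant minus WT turned to 0.20 for AXL in T58A, -0.32, -0.12, -0.040, -0.16, and -0.36 for AXL, EGFR, MET, IGF1R, and DDR2 in S62A, and 0.19 for FGFR1 in the double mutant.

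At the deposited FPKM, the CYC065 change in SH-EP, WT, T58A, S62A, and the double mutant turned to 1.09, 0.61, 0.26, 0.35, and 0.19 for PDGFRB, to 0.83, 0.37, 0.55, 0.48, and 0.42 for AXL, to 0.34, 0.38, 0.19, 0.031, and 0.23 for MET, and to 0.74, 0.46, 0.30, 0.49, and 0.47 for FGFR1. It turned to 0.51 and 0.42 for DDR2 in SH-EP and WT, and to 0.084 for IGF1R in SH-EP. With each library centred on its median, it turned to 1.22, 0.79, 0.44, 0.52, and 0.34 for PDGFRB, 0.96, 0.54, 0.74, 0.64, and 0.58 for AXL, 0.48, 0.55, 0.38, 0.20, and 0.38 for MET, and 0.88, 0.64, 0.49, 0.66, and 0.63 for FGFR1. DDR2 turned to 0.65, 0.60, and 0.092 in SH-EP, WT, and the double mutant, and IGF1R to 0.22 and 0.023 in SH-EP and the double mutant. Both scalings differ from the spike-in scale by a shift of a whole library, which the added constant makes smaller for weakly expressed genes. With the 36 more abundant spike-ins, the AXL interaction in T58A, which had not passed the threshold, turned to 0.17.

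Members higher in all 4 MYCN lines went from 1 to 0 with spike-in scaling and with a 1.5-fold minimum. The same held with a filter at 5 FPKM, which IGF1R does not pass. PDGFRA, at a mean of 4.87 FPKM over the 30 libraries, does not pass that filter either, so it was not tested there. Members lower in all 4 went from 5 to 3 with the fold minimum and ranged from 3 to 5 when 1 library was left out. Members that differed between a mutant and WT went from 8 to 4 with the fold minimum. Members lower with CYC065 in all 5 lines went from 7 to 1 as deposited and when centred, and those higher from 0 to 3 and 4, while leaving out a library gave 5 to 7 lower. Members with an interaction went from 4 to 7 on both of those scales, to 2 with a pseudocount of 1, to 0 without a filter, and to 0 to 6 without 1 library. The cause was not tested where the construction of an alternative does not give it.

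In the mean of the 4 MYCN lines, other receptors went from 9 higher and 4 lower to 0 and 10 with spike-in scaling, to 3 higher with the fold minimum or the 5 FPKM filter, to 15 lower without a filter, and to 6 to 9 higher without 1 library. Adaptors went from 15 higher and 9 lower to 0 and 36 with spike-in scaling and 2 and 4 with the fold minimum, and to 13 to 15 higher without 1 library. Negative regulators went from 5 higher and 8 lower to 1 and 20 with spike-in scaling, 2 and 3 with the fold minimum, 5 lower with the 5 FPKM filter, 8 higher without a filter, and 4 to 6 higher without 1 library. Lower ligands ranged from 10 to 12 without 1 library. With CYC065, the counts lower as deposited and when centred were 4 and 3 of other receptors, 4 and 4 of ligands, 16 and 16 of adaptors, and 10 and 8 of negative regulators. Other receptors lower with CYC065 were 6 with the 5 FPKM filter and 25 without one, and ligands 8 with the fold minimum.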
